A study of Mus musculus with 12 samples.

Results

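The genes described here are those named as proteins of the mitochondrial ribosome. All genes of the expression table whose NCBI gene ID maps to a mouse symbol beginning with Mrpl or Mrps and a digit were taken, without pseudogenes, which gave 78 of the 30268 genes, 49 named Mrpl and 29 named Mrps. The tissue was gonadal white fat of male C57BL/6 mice, and 12 polyadenylated RNA libraries were made, 3 biological replicates in each of 4 groups. The groups were mice without the microRNA gene Mir10a (KO) on a high-fat diet (HFD), wild-type mice (WT) on HFD, KO mice on a normal chow diet (NCD) and WT mice on NCD. Each diet was fed for 16 weeks from 8 weeks of age. How the Mir10a allele was made, and in which cells it was lost, is not given in the sources used here. Libraries are named by group and the number in the column header, such as KO_HFD 8.

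The mitochondrial ribosome translates the few mRNAs that are encoded in mitochondrial DNA, all of which specify subunits of the respiratory chain and the ATP synthase. Its RNAs come from mitochondrial DNA, whereas its proteins are encoded in the nucleus, made in the cytosol and imported. Some of these proteins have bacterial counterparts and others occur only in mitochondria. In white fat, mitochondria serve fatty acid synthesis and breakdown in adipocytes, and macrophages and other stromal cells add mitochondria of their own.

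Expression was given as FPKM, fragments scaled by transcript length and by the size of the library, a relative scale within each library, and the depth of the libraries is unknown because the table holds no counts. The sum over all genes ranged from 383633 to 455434 FPKM, and transcripts encoded in mitochondrial DNA took 7.52% to 17.5% of it. The tissue label was checked against 12 adipocyte markers, none of which was at 0 in any group. Their sum ranged from 7282 to 12726 FPKM in KO mice on HFD, 12999 to 16397 in WT mice on HFD, 20382 to 24799 in KO mice on NCD and 20962 to 21897 in WT mice on NCD. The sum of 15 macrophage markers ran the other way, at 5359 to 7432 FPKM, 3661 to 4917 FPKM, 548 to 722 FPKM and 668 to 861 FPKM in the same 4 groups. Markers of ciliated epithelium, which is no part of fat tissue, summed to 91.98 FPKM in KO_NCD 2, 66.5 FPKM in WT_NCD 2 and 48.1 FPKM in WT_NCD 4, and to 4.42 to 9.04 FPKM in the other 9 libraries. The targeted gene, Mir10a, was listed at 0.022 to 0.425 FPKM over KO and WT libraries alike, which checks nothing about the genotype labels, because mRNA libraries do not measure a mature microRNA.

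All 78 genes passed the filter of 1 FPKM in at least 3 libraries and were tested with the 14340 genes of the whole table. The lowest value of any of them in any library was 2.60 FPKM. Per kilobase of transcript, the most abundant over all libraries were Mrps6 (74.3 FPKM), Mrps21 (72.2 FPKM) and Mrpl33 (65.0 FPKM). Mrps6 and Mrps21 belong to the small and Mrpl33 to the large ribosomal subunit, and each has a bacterial counterpart. The least abundant were Mrpl19 (3.35 FPKM), Mrpl35 (4.91 FPKM) and Mrpl1 (5.25 FPKM), all of the large ribosomal subunit.

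The summed expression of the 78 genes was 1546, 1573 and 1445 FPKM in KO mice on HFD, against 1928, 2087 and 1783 FPKM in KO mice on NCD. It was 1698, 1757 and 1677 FPKM in WT mice on HFD, against 1936, 1927 and 1913 FPKM in WT mice on NCD. The HFD libraries lay below the NCD libraries in both genotypes, and on HFD the KO libraries lay below the WT libraries, while on NCD the genotypes overlapped. As a share of all FPKM, the genes held 0.377% to 0.397% in KO mice on HFD, 0.419% to 0.426% in WT mice on HFD, 0.424% to 0.458% in KO mice on NCD and 0.441% to 0.445% in WT mice on NCD.

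**Figure D1:**
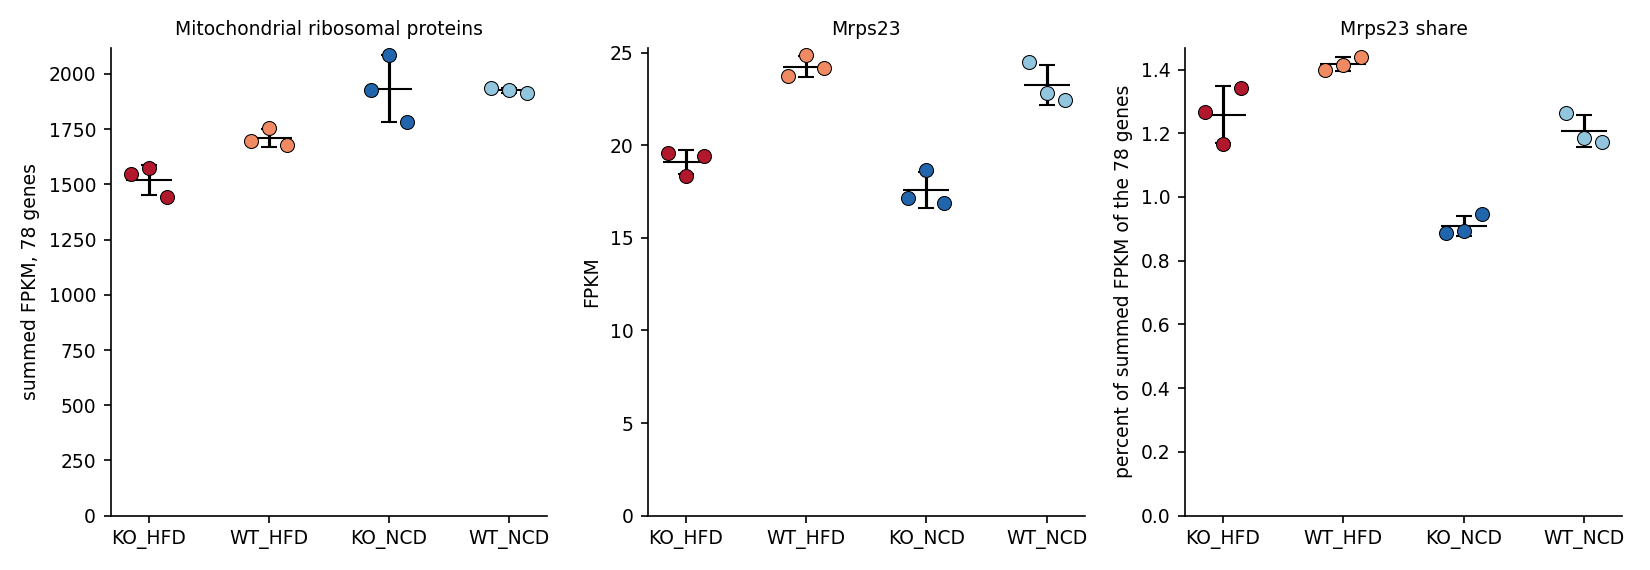
Summed FPKM of the 78 genes (left), FPKM of Mrps23 (middle) and the share of Mrps23 in that sum in percent (right), 1 point per library, with the mean and SD of each group of 3. The sums are lowest in KO mice on HFD, whereas Mrps23 separates the genotypes on both diets.

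Most mitochondrial ribosomal protein genes were lower on HFD than on NCD in KO fat, and a smaller number passed as lower in WT fat. These counts are no test of a difference between genotypes. In KO mice 54 of the 78 genes fell and 1 rose with HFD, by limma with a Benjamini-Hochberg (BH) adjusted p under 0.05 over all genes. Of all 14340 tested genes 26.2% fell and 34.6% rose in that comparison. The median log2 fold change was -0.34 over the 78 genes and 0.04 over all tested genes. In WT mice 28 of the 78 genes fell and 4 rose, against 25.3% of all tested genes that fell and 25.4% that rose. There the median was -0.18 over the 78 genes and -0.03 over all tested genes. Both diet comparisons hold separate libraries but share a common spread per gene, so their calls are not independent. The 28 genes that fell in WT were 28 of the 54 that fell in KO. Another 26 passed as lower in KO and not in WT, and 20 passed in neither genotype. The overlap of calls over all tested genes was not taken.

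The fall accompanied the lower adipocyte marker sums and higher macrophage marker sums given above. In KO 10 of the 12 adipocyte markers fell and 1 rose, and in WT 7 fell and 1 rose. All 15 macrophage markers rose in both genotypes. Of 10 fibroblast and progenitor markers 9 rose in KO and 5 in WT, and their sum was 2334 to 2770 FPKM in KO mice on HFD, 2007 to 2168 FPKM in WT mice on HFD, 1079 to 1201 FPKM in KO mice on NCD and 1222 to 1292 FPKM in WT mice on NCD. Of 10 mesothelial markers 0 passed in KO by limma, where 2 had an unadjusted p under 0.05, and 10 fell in WT (median -1.51). The part of these cell types in the fall was not tested. In bulk tissue, fewer cells of a type and less RNA per cell cannot be told apart. Without the 3 libraries with high sums of ciliated epithelium markers, which left 1 WT and 2 KO libraries on NCD, 47 genes fell and 1 rose in KO and 13 fell and 0 rose in WT, and the lone WT library on NCD was assumed to vary like the other groups. When each library was centred on its median gene, the median over all tested genes in KO was -0.11 in place of 0.04, and 66 genes fell. Relative to the median of all genes, the 78 genes stood at -0.38 in KO under either scaling. That is so by construction, because centring shifts all genes of a library by the same amount. The counts in these alternative fits are given without the shares of all tested genes that fell in them. They cannot be read against the shares given above.

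**Figure D2:**
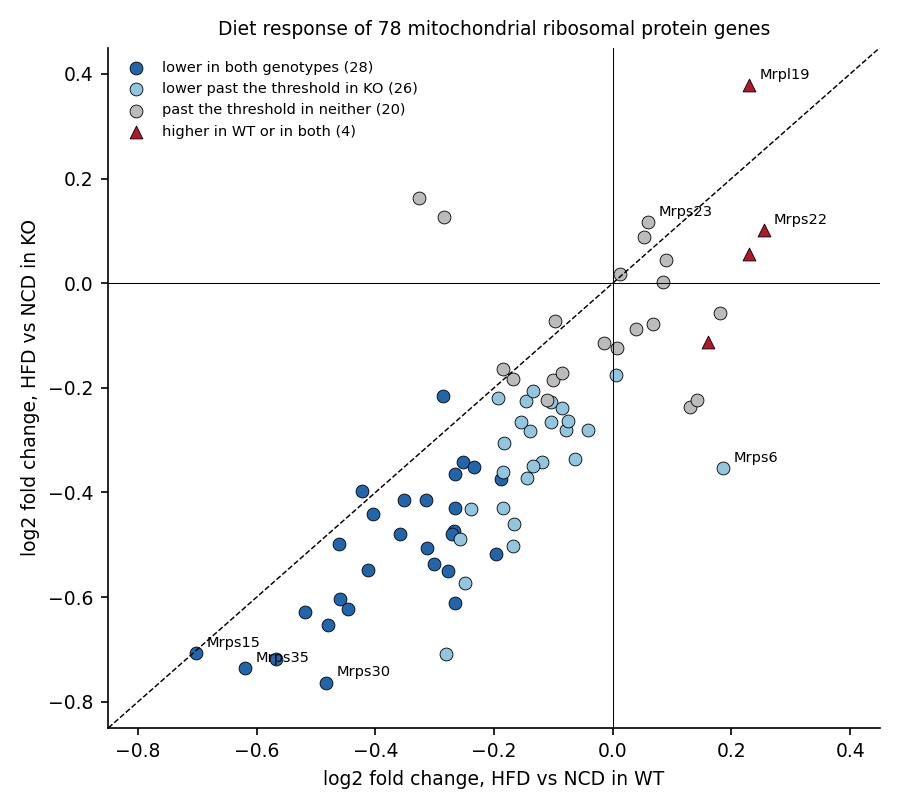
Log2 fold change of HFD against NCD for each of the 78 genes, in KO mice (vertical) and WT mice (horizontal), coloured by which comparisons passed the threshold. Points below the dashed line of equal change, 68 of 78, had a lower log2 fold change in KO than in WT. The share of all tested genes below such a line is not given here.

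The deepest falls in KO mice were in Mrps30, Mrps35, Mrpl2, Mrps34 and Mrps15. Mrps30 carries a small-subunit name, but its protein sits in the large subunit of the mammalian ribosome and has no bacterial counterpart. It was at 11.3, 11.8 and 10.3 FPKM in KO mice on HFD, against 19.2, 22.3 and 17.6 FPKM in KO mice on NCD. Every HFD library lay below every NCD library, with a log2 fold change of -0.76 (SE 0.085, limma adjusted p = 2.2e-05). In WT mice it was at 13.3, 13.5 and 12.3 FPKM on HFD and 18.1, 19.6 and 18.03 FPKM on NCD, a log2 fold change of -0.48. Diets without overlap were common in the whole table. Among all 14340 tested genes, HFD lay wholly below NCD in 4375 and wholly above in 5188 in KO. In WT the counts were 4773 below and 4483 above. Among the 78 genes they were 56 below and 2 above in KO, and 43 below and 5 above in WT.

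Mrps15, a small-subunit protein of bacterial type, was at 24.7, 24.5 and 22.3 FPKM in KO mice on HFD, against 38.3, 44.9 and 35.9 FPKM in KO mice on NCD. In WT mice it was at 22.9, 24.3 and 23.2 FPKM on HFD and 39.5, 40.0 and 37.0 FPKM on NCD. The groups of a diet did not overlap in either genotype, and the log2 fold changes were -0.71 in KO and -0.70 in WT (SE 0.08 for both), the lowest of the 78 in WT. Mrpl2, which in bacteria lies beside the site of peptide bond formation, had 18.9, 20.1 and 17.1 FPKM in KO mice on HFD, against 30.8, 35.5 and 28.1 FPKM in KO mice on NCD. Its log2 fold changes were -0.72 in KO and -0.57 in WT.

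Mrps35, a small-subunit protein found only in mitochondria, fell by 0.74 in KO and by 0.62 in WT on the log2 scale. Mrps34, another of this kind, fell by 0.71 in KO (adjusted p = 0.00111) and had a log2 fold change of -0.28 in WT (adjusted p = 0.109). Mrpl11, part of the stalk base where translation factors dock, was at 8.48, 8.37 and 7.68 FPKM in KO mice on HFD and 12.7, 14.4 and 12.6 FPKM in KO mice on NCD. It fell by 0.63 in KO and by 0.52 in WT.

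Among the most and least abundant genes some fell and others did not pass. Mrps21, among the most abundant, was at 62.8, 62.6 and 57.9 FPKM in KO mice on HFD, against 81.5, 80.5 and 72.6 FPKM in KO mice on NCD. In WT mice it was at 71.8, 70.1 and 71.5 FPKM on HFD and 75.5, 77.2 and 82.1 FPKM on NCD. The diets did not overlap in either genotype, and the log2 fold change was -0.35 in KO (adjusted p = 0.000655) and -0.14 in WT (adjusted p = 0.0944), past the threshold in KO. Mrpl35, at the low end, was at 4.36, 4.04 and 4.43 FPKM in KO mice on HFD, against 5.19, 5.65 and 5.38 FPKM in KO mice on NCD, and fell by 0.28. Mrpl33 and Mrpl1 did not pass in KO, where Mrpl33 overlapped between diets at 58.0, 58.1 and 61.9 FPKM on HFD and 67.6, 75.1 and 59.3 FPKM on NCD.

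The genes that rose were few and their changes small. Mrpl19, the least abundant of the 78, was at 4.01, 3.77 and 4.32 FPKM in KO mice on HFD, against 2.60, 3.05 and 2.98 FPKM in KO mice on NCD. It was at 3.36, 3.57 and 3.85 FPKM in WT mice on HFD and 2.87, 2.84 and 3.02 FPKM in WT mice on NCD. It rose in both genotypes, by 0.38 in KO (adjusted p = 0.00120) and 0.23 in WT (adjusted p = 0.0247). It was the only one of the 78 that rose in KO.

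In WT mice 3 small-subunit genes counted here as found only in mitochondria also rose, Mrps22 by 0.25, Mrps18b by 0.23 and Mrps33 by 0.16. Mrps22 was at 15.6, 17.6 and 14.5 FPKM in WT mice on HFD and 14.4, 12.5 and 12.6 FPKM in WT mice on NCD, groups that did not overlap but whose nearest libraries stood at 14.5 FPKM on HFD and 14.4 FPKM on NCD. None of the 4 rises in WT passed the threshold after quantile normalization or median centring of the libraries, or without WT_NCD 2 or WT_HFD 2 in turn. In KO mice these 3 genes had log2 fold changes of 0.10, 0.06 and -0.11, none past the threshold.

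In KO more members fell than rose in each of 4 structural classes, whereas in WT the mitochondria-specific small-subunit class was an exception. The counts can be set against the 26.2% of all tested genes that fell in KO and the 25.3% that fell in WT. Of the 16 small-subunit genes with bacterial counterparts, 14 fell in KO (median -0.41) and 9 fell in WT (median -0.26), 87.5% and 56.2% of the class. Of the 29 large-subunit genes of bacterial type, 18 fell and 1 rose in KO (median -0.23), and 8 fell and 1 rose in WT (median -0.15), where the 27.6% that fell was near the share of all genes. Among the proteins that occur only in mitochondria, 16 of 22 large-subunit genes fell in KO (median -0.37) and 9 in WT (median -0.22). Of the 11 small-subunit genes of that kind, 6 fell in KO (median -0.26), while in WT 2 fell (18.2%) and 3 rose (27.3%), with a median of -0.08. Both medians are the values of Mrps36, which was counted here by its name, and its place in the ribosome was not examined. Mrps18b, among the 3 that rose in WT, was placed in the mitochondria-specific small-subunit class by its standard name after the values were seen. Differences between classes were not tested.

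Between KO and WT mice on NCD the 78 genes showed no common shift. In that comparison 0 of the 78 genes passed in limma, where 0.0488% of all tested genes did, and 1 (1.28%) had an unadjusted p under 0.05, Mrps23, against 5.1% of all tested genes. The median log2 fold change of KO against WT was -0.005 over the 78 genes and -0.05 over all tested genes. On HFD 1 of the 78 passed, also Mrps23, against 0.802% of all tested genes. The median there was -0.14 over the 78 genes and 0.03 over all tested genes, and 70 of the 78 log2 fold changes (89.7%) were below 0, against 42.9% of those of all tested genes.

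In 39 of the 78 genes every KO library on HFD lay below every WT library on HFD, as did 11.7% of all tested genes, although 38 of the 39 did not pass the adjusted threshold. On NCD, every KO library lay below every WT library for 2 genes, Mrps23 and Mrpl4, against 7.96% of all tested genes. The interaction, which tests whether the response to diet differed between genotypes, passed for 0 of the 78 genes and 0.272% of all tested genes by limma. The log2 difference of the diet responses, KO minus WT, had a median of -0.15 over the 78 genes and 0.09 over all tested genes, and 12 of the 78 (15.4%) had an unadjusted p under 0.05, against 18.5% of all tested genes. A larger fall in KO was thus not shown for any single gene. On HFD the KO libraries also had the lower adipocyte and the higher macrophage marker sums, without overlap with the WT libraries, and their part in the genotype difference was not tested.

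Mrps6 had the lowest interaction p of the 78. It was at 64.4, 65.3 and 52.4 FPKM in KO mice on HFD, against 85.1, 87.1 and 81.5 FPKM in WT mice on HFD. On NCD it was at 81.2, 67.9 and 84.4 FPKM in KO mice, against 78.7, 71.0 and 72.9 FPKM in WT mice. The genotypes were apart on HFD and overlapped on NCD, with a log2 fold change of KO against WT on HFD of -0.48 (adjusted p = 0.0586) and an interaction of -0.54 (adjusted p = 0.137), both short of the threshold. Mrps6 overlaps the transporter gene Slc5a3 in the annotation, and reads of overlapping genes cannot be told apart where the strand setting of the counting is not given.

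Mrps23 was the one gene of the 78 that passed the test between genotypes. It encodes a small-subunit protein that occurs only in mitochondria and lies on chromosome 11 (NCBI gene 64656, chr11:88194106-88211507, GRCm38.p6), the chromosome of Mir10a (chr11:96317165-96317274), at a distance of 8.11 Mb. It was at 19.6, 18.4 and 19.4 FPKM in KO mice on HFD, against 23.7, 24.8 and 24.2 FPKM in WT mice on HFD. On NCD it was at 17.1, 18.7 and 16.9 FPKM in KO mice, against 24.5, 22.8 and 22.4 FPKM in WT mice. Every KO library lay below every WT library on each diet and across diets.

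The log2 fold change of KO against WT was -0.33 on HFD (SE 0.058, limma adjusted p = 0.0347) and -0.39 on NCD (SE 0.058, adjusted p = 0.0612), so the threshold was passed on HFD only. The HFD call was lost when KO_HFD 3, KO_HFD 5, KO_HFD 8, WT_HFD 1 or WT_HFD 2 was left out in turn (adjusted p 0.0508 to 0.187) and when only the HFD groups were fitted (0.0841). The NCD difference passed without KO_NCD 3 (adjusted p = 0.0371) and without the filter (0.0377). It was further from the threshold in the fit of the NCD groups alone (0.394), without the 3 libraries with ciliated epithelium (0.380), after median centring (0.263) and without WT_NCD 1 (0.262). Averaged over both diets, a comparison added after the data were seen, the log2 fold change was -0.36 (SE 0.041, adjusted p = 0.00513). In that comparison Mrps23 was the only one of the 78 to pass, where 0.174% of all tested genes did, and the only one in which all 6 KO libraries lay below all 6 WT libraries, where 0.286% of all tested genes did.

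Mrps23 did not pass the test with diet in either genotype. Its log2 fold change of HFD against NCD was 0.12 in KO (adjusted p = 0.103) and 0.06 in WT (adjusted p = 0.410), and the interaction was 0.06 (SE 0.082, adjusted p = 0.743). The value in KO was -0.0378 after quantile normalization and -0.0287 after median centring, and it passed without KO_NCD 3 (0.16, adjusted p = 0.0419). The share of Mrps23 in the sum of the 78 genes, which was lower on HFD, was 1.17% to 1.34% in KO mice on HFD, against 0.888% to 0.946% in KO mice on NCD. In WT mice it was 1.40% to 1.44% on HFD, against 1.17% to 1.26% on NCD. Ordered by FPKM, Mrps23 ranked 25th to 37th of the 78 in KO mice on HFD, 20th to 21st in WT mice on HFD, 50th to 51st in KO mice on NCD and 31st to 39th in WT mice on NCD.

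**Figure D3:**
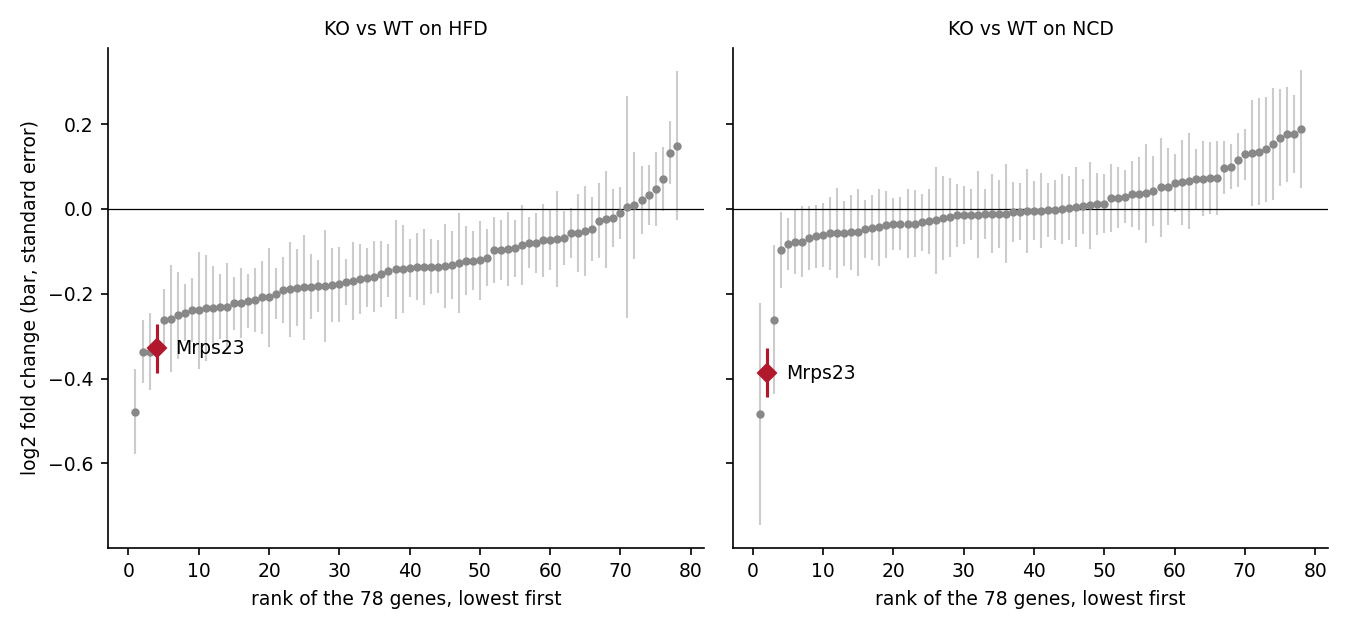
Log2 fold change of KO against WT for the 78 genes in order of size, on HFD (left) and NCD (right), with standard errors from limma. Mrps23 (diamond) is at -0.33 on HFD and -0.39 on NCD, while the median of the 78 genes is -0.14 on HFD and near 0 on NCD. Mrps23 is not the lowest of the 78 on either diet, and the lowest value on NCD is -0.48.

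The surroundings of Mrps23 on chromosome 11 were examined for like changes. Of the other 17 tested genes within 1 Mb, 0 passed in KO against WT on either diet. In the comparison averaged over both diets 1 of them passed, Dgke, which encodes a diacylglycerol kinase and lies 0.824 Mb away. Dgke was at 2.196, 2.17 and 1.98 FPKM in KO mice on HFD, against 3.91, 3.05 and 2.95 FPKM in WT mice on HFD. On NCD it was at 1.94, 2.53 and 2.65 FPKM in KO mice, against 4.50, 4.03 and 4.07 FPKM in WT mice. All 6 KO libraries lay below all 6 WT libraries, with an averaged log2 fold change of -0.54 (limma adjusted p = 0.0175). Coil, the gene of a nuclear body protein, chosen after its values were seen, was also apart in this sense, at -0.15 (adjusted p = 0.362). Gm525, a gene likewise chosen after its values were seen, went the other way on NCD, with a log2 fold change of KO against WT of 0.97 (adjusted p = 0.0589) and 0.06 on HFD (adjusted p = 0.835).

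Cuedc1 overlaps Mrps23 at one edge in the annotation, and its pattern was another one. It was at 9.50, 10.7 and 6.16 FPKM in KO mice on HFD and 9.44, 8.62 and 6.70 FPKM in WT mice on HFD, and at 24.8, 20.1 and 21.5 FPKM in KO mice on NCD and 16.1, 18.3 and 19.3 FPKM in WT mice on NCD. With diet its log2 fold changes were -1.27 in KO and -1.04 in WT. Between genotypes its libraries overlapped on HFD, while on NCD every KO library lay above every WT library, with a log2 fold change of 0.29 (adjusted p = 0.980), opposite in sign to that of Mrps23.

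Of the 11 mitochondrial ribosomal protein genes on chromosome 11, Mrps23 was the only one past the threshold between genotypes. The other 10 were Mrps24, Mrpl22, Mrpl55, Mrpl27, Mrpl10, Mrpl45, Mrpl58, Mrps7, Mrpl38 and Mrpl12. Their log2 fold changes of KO against WT lay between -0.34 (Mrpl12) and -0.07 (Mrpl45) on HFD and between -0.10 (Mrpl55) and 0.15 (Mrps24) on NCD. Mrpl12, a protein of the flexible stalk that recruits translation factors, was at 41.3, 38.3 and 38.04 FPKM in KO mice on HFD, against 48.9, 49.96 and 50.3 FPKM in WT mice on HFD. The groups did not overlap, but the adjusted p was 0.0601. With diet, 9 of the 11 genes fell in KO and 5 in WT, with Mrpl45, which anchors the ribosome to the inner membrane, lowest at -0.60 in KO and -0.46 in WT.

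The microRNA lost in KO mice and its sites in the 78 genes are shown because the strand below is what the deleted gene encodes. The 5-prime strand of the Mir10a hairpin (RefSeq, GRCm38.p6, chr11:96317186-96317208, plus strand) is given with the seed, bases 2 to 8, in capitals. Below it stand the sites of 3 of the genes, 29 bases each of the longest annotated GENCODE 3-prime untranslated region on the transcript strand, with the 7 bases that pair with the seed in capitals.
mmu-miR-10a-5p: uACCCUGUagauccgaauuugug
Mrpl35 (chr6:71814653-71814681, minus strand): gttttttcaagACAGGGTttctctggctg
Mrpl57 (chr14:57828310-57828338, plus strand): gatttttcaagACAGGGTttctctgtata
Mrps24 (chr11:5704271-5704299, minus strand): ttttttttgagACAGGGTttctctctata

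Such a site was found in 7 of the 78 genes (8.97%), against 14.9% of 12613 tested protein-coding genes with a 3-prime untranslated region. The sites of Mrpl35, Mrpl57 and Mrps24 lie in nearly the same letters, with the site followed by ttctct in each. Mrps16, Mrps17 and Mrps35 also had a site. These 6 genes had log2 fold changes of KO against WT between -0.04 and 0.15 on NCD and between -0.19 and -0.07 on HFD, and none of the 6 passed the threshold. The 744 bases of the Mrps23 region held 0 such sites.

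Promoters were read for 69 of the 78 genes from RefSeq (GRCm38.p6), 300 bases each, 250 before and 50 from the annotated start. Cores of 3 factors known to act on mitochondrial genes were searched on both strands. A gene was counted if any of its promoters held the core, so genes with more promoters had more chances. The ETS core, CCGGAAG, which GABPA binds, was in 26 of the 69 genes (37.7%). It was in 9.93% of 27025 genes with a promoter and 19.4% of the 10711 tested ones. The NRF1 core, CGCATGCG, was in 7 (10.1%), against 2.07% of all and 4.10% of tested genes. The YY1 core, AAGATGGCG, was in 8 (11.6%), against 1.64% of all and 3.37% of tested genes. No ETS match in these promoters shared a base with a match to another core.

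Windows of 30 bases around the ETS core, in capitals on either strand, are shown for Mrps23 and for the 3 genes of the small subunit that rose in WT. The annotated start beside the Mrps23 window lies inside the span given for the gene, not at its first base.
Mrps23 (chr11:88204392-88204421, plus strand): tgccgcttccgCTTCCGGtaacagcccgag
Mrps22 (chr9:98601672-98601701, minus strand): aacctctcgagCCGGAAGttgctctatcga
Mrps18b (chr17:35916391-35916420, minus strand): tgtcccgagcatgcgcagtcgctCTTCCGG
Mrps33 (chr6:39810887-39810916, minus strand): aagtaaaggggggcgggcCTTCCGGggacg

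The core was counted by call. Of the 49 genes with a promoter that fell in KO, 12 held it, whereas 14 of the 20 that did not pass in KO held it, Mrps23 and the 3 genes above among them. In WT, among genes with a promoter, 7 of the 26 that fell held it, whereas 16 of the 40 that did not pass and all 3 that rose held it. Over the 26 genes with the core the median log2 fold change of HFD against NCD was -0.20 in KO and -0.14 in WT. Over the 43 genes without it the medians were -0.35 in KO and -0.19 in WT. The values of both sets overlapped widely, from -0.65 to 0.16 with the core and from -0.76 to 0.002 without it in KO. Over all tested genes the medians in KO were 0.04 with the core and 0.03 without it. These counts are a description of letters in a fixed window, and the difference was not tested.

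**Figure D4:**
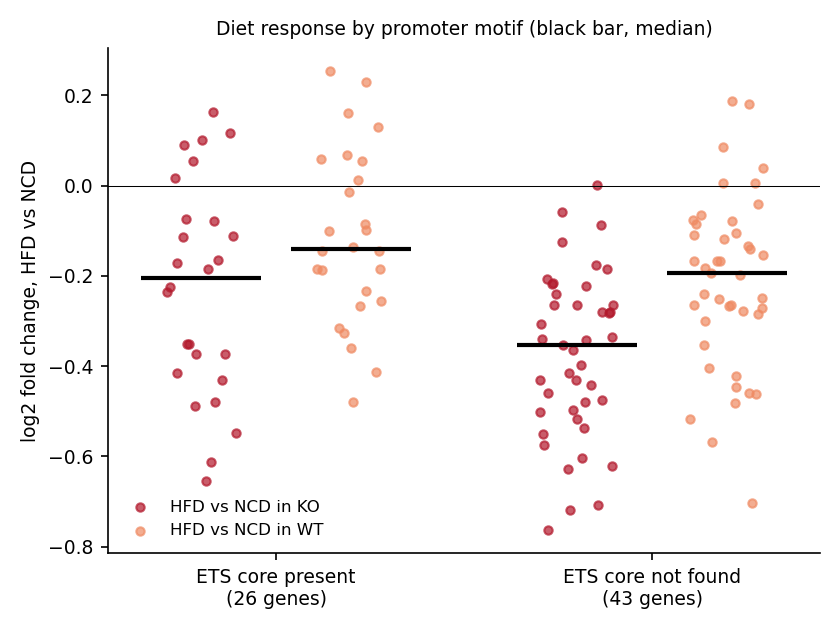
Log2 fold change of HFD against NCD for the 69 genes with a promoter sequence, split by whether the ETS core was found, in KO mice (dark) and WT mice (light). Bars are medians, -0.20 and -0.35 in KO with and without the core, and the points of both sets overlap.

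Over 5 other lists of the mitochondrial translation pathway, 42 of 78 genes fell and 2 rose in KO (53.8% lower, against 26.2% of all tested genes), and 32 fell and 3 rose in WT (41.0% lower, against 25.3%). Of 5 further ribosomal subunits with other names, 4 fell in KO and 2 in WT, among them Dap3, a GTP-binding protein of the small subunit, at 12.0 ± 3.10 FPKM in KO mice on HFD, against 19.3 ± 2.69 FPKM in KO mice on NCD (SD, n = 3 each). Of 28 assembly and rRNA modification genes, 17 fell and 2 rose in KO, and 11 fell and 2 rose in WT. Ngrn, which is needed for the large ribosomal RNA, fell by 0.74 in KO and 0.69 in WT, and the assembly GTPase gene Mtg1 fell by 0.57 in KO and 0.44 in WT.

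Of 15 translation factor genes 6 fell in KO (40.0%) and 4 in WT (26.7%, near the share of all genes), with 0 that rose, and Tsfm, the exchange factor of the elongation factor Tufm, fell by 0.57 in KO and 0.32 in WT. Of 20 genes that charge mitochondrial tRNAs 8 fell in each genotype, while 0 rose in KO and 1 rose in WT. Gatb, a subunit of the enzyme that makes glutaminyl-tRNA, was at 5.22 ± 0.289 FPKM in KO mice on HFD, against 9.47 ± 0.127 FPKM in KO mice on NCD (SD, n = 3 each), a log2 fold change of -0.75. Of 10 genes for transcription and replication of mitochondrial DNA 7 fell in each genotype, Tfam, which packages that DNA, by 0.24 in KO and 0.25 in WT.

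Among 9 regulators of mitochondrial gene expression, 3 rose and 1 fell in KO (33.3% higher, against 34.6% of all tested genes), and 3 rose in WT (33.3%, against 25.4%). Pprc1, a coactivator, rose by 0.98 in KO and 0.78 in WT. Myc rose by 0.58 in KO. Its log2 fold change of 0.32 in WT was not past the threshold under 8 alternatives, and was 0.20 (limma adjusted p = 0.159) without WT_HFD 4. Gabpa, a factor that binds the ETS core, had log2 fold changes of 0.29 in KO and 0.19 in WT. The call in KO was lost after quantile normalization and after median centring (0.14 under each), and that in WT was lost under 9 alternatives. Ppargc1a, the coactivator of mitochondrial biogenesis, passed as lower in KO, though not under 5 alternatives, at 0.378 ± 0.204 FPKM in KO mice on HFD, against 1.12 ± 0.198 FPKM in KO mice on NCD (SD, n = 3 each).

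Related families were set beside the mitochondrial ribosomal proteins. Of 81 nuclear genes for oxidative phosphorylation subunits, 71 fell and 1 rose in KO (median -0.60), and 50 fell and 2 rose in WT (median -0.36). The summed FPKM of the 78 genes, divided by the separate sum of the oxidative phosphorylation genes and given in percent, was 21.6% to 22.6% in KO mice on HFD, against 16.9% to 18.4% in KO mice on NCD. The ratio was 20.2% to 21.9% in WT mice on HFD, against 17.2% to 19.1% in WT mice on NCD.

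Of 81 cytosolic ribosomal protein genes 28 rose and 1 fell in KO (median 0.20), a share of rises equal to the 34.6% of all tested genes, and 13 rose after median centring. In WT 1 rose and 1 fell (median 0.05). The 13 mRNAs that the mitochondrial ribosome translates all fell in KO (median -1.13), and 9 fell in WT (median -0.54), but after quantile normalization 4 fell in KO, and 3 fell and 2 rose in WT. That scaling gives every library the same set of values, so it can remove a joint fall of very abundant transcripts such as these. The 2 mitochondrially encoded rRNAs both fell in KO (median -0.55) and both rose in WT (median 0.55). Without the 3 libraries with ciliated epithelium, 68 oxidative phosphorylation genes fell in KO and 10 in WT, and 12 of the 13 mRNAs fell in KO and 0 in WT. No test was made of the differences between families, and the counts in alternative fits are given without the share of all tested genes.

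**Figure D5:**
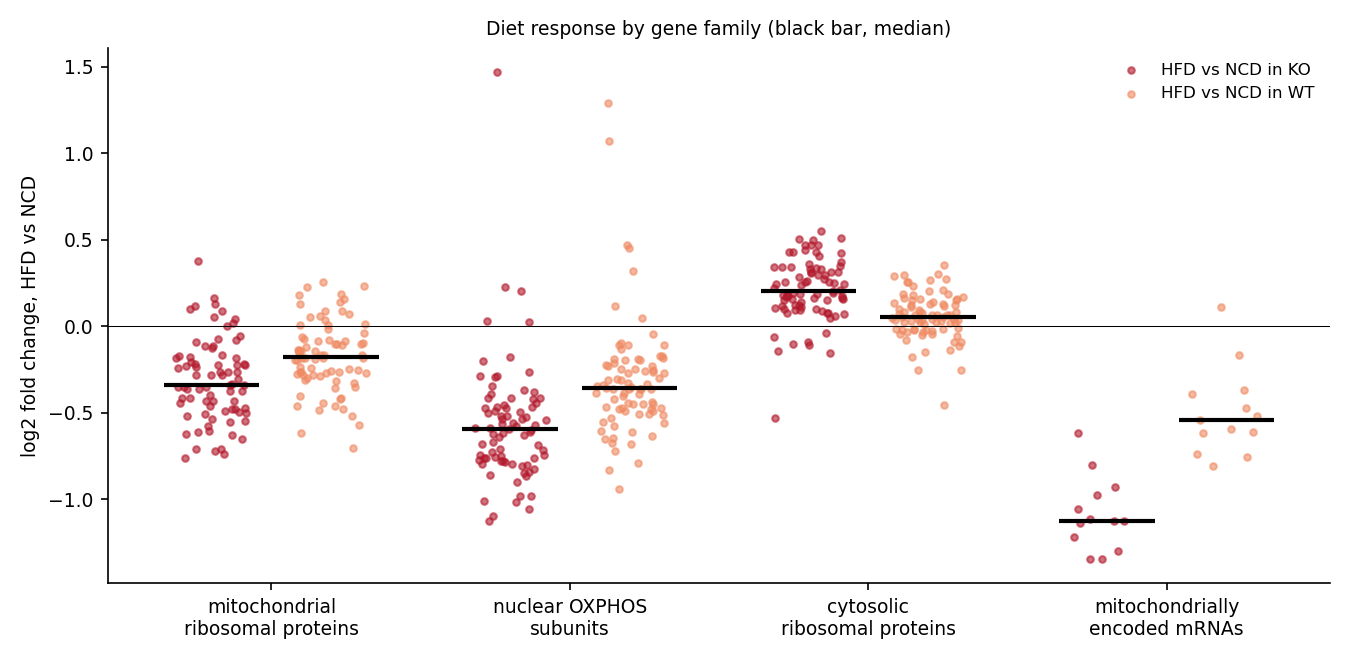
Log2 fold change of HFD against NCD for each tested gene of 4 families, in KO mice (dark, left of each pair) and WT mice (light, right), with the median as a bar. Medians of the mitochondrial ribosomal proteins, -0.34 in KO and -0.18 in WT, lie between those of the oxidative phosphorylation subunits and the cytosolic ribosomal proteins.

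Single libraries departed in 2 of the 78 genes, which were chosen after their values were seen. Mrpl48 was at 7.46 FPKM in KO_NCD 3 and at 17.7 to 21.5 FPKM in the other 5 NCD libraries. Mrpl4 was at 22.7 FPKM in KO_HFD 5 and 22.6 FPKM in WT_NCD 4 and at 13.6 to 16.8 FPKM in the other 10 libraries. Neither gene passed the threshold in any comparison. In the annotation 25 of the 78 genes overlap another gene, 20 of them a protein-coding one, Mrpl48 and Mrpl19 included.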

How the data were processed

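Per the file headers, the values that the authors deposited are FPKM, and no counts were used here. Per the submitters' processing notes, the build was mm10, and StringTie 1.3.4d, HISAT2 2.1.0, Trimmomatic, DESeq2 and bcl2fastq 2.20.0 were used, each in a role not given there. Libraries were prepared with a stranded TruSeq kit, per the labels' protocols, but the strand setting of the counting is not given in the sources used here. The header of each of the 12 columns names a genotype and a diet, which placed it in a group. Gene IDs were matched to symbols in the RefSeq annotation of GRCm38.p6, the assembly called mm10, for 30196 of 30268 IDs.

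Genes under 1 FPKM in more than 9 libraries were not tested. Values were taken as log2(FPKM + 1) and fitted across 14340 genes with limma 3.58.1 in R 4.3.3, with 4 group means, 8 residual degrees of freedom and a mean-variance trend. BH adjustment ran over all genes of a comparison, and calls needed an adjusted p under 0.05. The added 1 FPKM understates the fold changes of low genes. The script was checked on simulated data. Tables were made with Python 3.11.15 and pandas 2.3.3.

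The members, lists and motifs were chosen with earlier results of these data known, so counts over lists are given beside those over all genes, with no test of a list. After the values were seen, Mrpl47 was moved to the large-subunit class of bacterial type and Mrps18b to the small-subunit class that occurs only in mitochondria, to follow their standard names. The text names Mrps23, members past the threshold between genotypes, the 5 lowest and 5 highest called changes with diet, the 3 most and 3 least abundant members, those on chromosome 11, and called genes of other lists with the lowest p. Alternatives were 3 other scalings, a pseudocount of 0.1 FPKM, no filter, no variance trend, fits of 2 groups, and fits without each library or without the 3 libraries with ciliated epithelium. The site of 1 further gene is not reported here.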

Additional observations from a re-analysis of the deposited data

How the results depend on the processing

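No paired analysis was possible because the column headers carry animal numbers that differ from the replicate numbers of the titles. Among the 78 genes, 47 to 67 were called with diet in KO under all alternatives run, and 50 to 61 when single libraries were left out. Counts of called genes in this paragraph hold rises and falls together. In WT 28 to 35 were called, except that 13 were called without the 3 libraries with ciliated epithelium and 22 to 27 without single libraries. Of the 55 called in KO, 47 passed in every fit without a single library, and of the 32 called in WT, 19 did. These counts are given without the share of all tested genes called in the same fits. The median in KO was -0.43 after quantile normalization and -0.48 after median centring, and that of the interaction was -0.24 and -0.26. Without single libraries the medians ranged from -0.36 to -0.28 (diet in KO), -0.20 to -0.15 (diet in WT), -0.17 to -0.12 (KO against WT on HFD), -0.06 to 0.05 (KO against WT on NCD) and -0.20 to -0.09 (interaction).

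Between genotypes on HFD, 2 genes were called after quantile normalization, 2 after median centring, 0 in the fit of the 2 HFD groups and 0 to 2 without single libraries. On NCD 1 was called without the filter and 0 to 1 without single libraries, and for the interaction 0 to 0. These counts, too, are given without the share of all tested genes called in the same fits. Mrps23 had -0.33 in the fit of the 2 HFD groups and -0.34 to -0.30 on HFD without single libraries. On NCD it had -0.39 and passed without the filter (adjusted p = 0.0377), had -0.36 averaged over diets, and ranged from -0.43 to -0.35 without single libraries. Its diet response in KO was -0.0378 after quantile normalization, -0.0287 after median centring and 0.14, past the threshold, when mitochondrially encoded genes were left out of the scaling, and 0.0903 to 0.16 without single libraries, past the threshold without KO_NCD 3. In WT it was -0.0133 without the libraries with ciliated epithelium and 0.03 to 0.10 without single libraries. Its interaction was -0.0490 after quantile normalization, -0.0537 after median centring and 0.02 to 0.10 without single libraries. The causes of these shifts were not tested. Of 95 diet calls that the naming rule selected, cell type markers and genes not described in the text included, 22 were lost under at least 1 alternative and 0 reversed. Depth is unknown, so counting error could not be given, and 3 libraries per group limit the precision.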
